A study of Mus musculus with 74 samples.

Results

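Of the genes described here, Tln1, Fermt3, Vcl, Zyx, Pxn, Flna and Vasp encode proteins at the link between integrins, the adhesion receptors of the cell surface, and the actin cytoskeleton. The other gene, Prex1, encodes a Rac exchange factor. The genes were matched by symbol, and all 8 were found, each as 1 row, among the 23297 features with a symbol (58976 features in all) of each of the 2 deposited tables. Tln1 and Prex1 were picked because of their difference between donors in macrophages of the grafted nerve at end stage, so that contrast is given below as a description with no test. Values are FPKM, mapped fragments scaled for transcript length and library size, a level per length that can be set side by side between genes. In the build of the files, mm10, Tln1 lies on the minus strand at chr4:43531512-43562584, Prex1 on the minus strand at chr2:166566345-166713832, Fermt3 on the minus strand at chr19:6998958-7019470 and Vcl on the plus strand at chr14:20929397-21033673. Zyx lies on the plus strand at chr6:42346652-42360212, Pxn on the plus strand at chr5:115506676-115555986, Flna on the minus strand at chrX:74223461-74246534 and Vasp on the minus strand at chr7:19256932-19271854.

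The study profiled cells taken with anti-CD11b magnetic beads from spinal cord, called MG (microglia), and from sciatic nerve, called MP (peripheral macrophages), in 74 libraries and 21 groups. All mice were females on a C57BL/6J background. The disease mice carried hSOD1-G93A, a mutant human superoxide dismutase 1 transgene that causes a motor neuron disease used as a model of amyotrophic lateral sclerosis (ALS). Non-grafted G93A mice were sampled before symptoms (mean age 50.8 days; MG n = 4, MP n = 3), at onset, defined by the weight peak (105 days; MG n = 5, MP n = 3), at the early symptomatic stage, 10% weight loss (152.6 days; n = 4 each), and at end stage (169.4 days; n = 4 each). MG controls were WT mice, which carry the wild-type human SOD1 transgene (107.3 and 165.4 days, n = 4 each), and B6 mice without a transgene (109.8 and 165.6 days, n = 4 each). A further 4 MP libraries carry a description of WT while their titles, sources and strains read G93A, and they are called the MP libraries described as WT. By their titles they come from the age corresponding to end stage. The grafted mice were all hSOD1-G93A recipients that received bone marrow at onset from G93A or WT donors, and were sampled at the early symptomatic stage and at end stage (n = 3 each, but n = 2 for MP of WT marrow at the early stage). Each library came from 1 mouse, save for MP before symptoms, where the nerves of 2 mice were combined. The promoter of the transgenes, the conditioning of the recipients and the share of donor cells in them were not given in the sources used here.

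Integrins cross the membrane with short tails that have no enzyme activity, so adhesion depends on the proteins that bind those tails. Talin (Tln1) and kindlin-3 (Fermt3, the kindlin of blood cells) bind the tail of the beta chain and switch the integrin to its high-affinity form. Vinculin (Vcl) binds stretched talin and actin, paxillin (Pxn) is an adaptor at the same plaques, and zyxin (Zyx) and VASP (Vasp) act where actin filaments are extended or repaired. Filamin A (Flna) cross-links actin and competes with talin for some integrin tails, and P-Rex1 (Prex1) is a Rac exchange factor of leukocytes that acts downstream of G protein-coupled receptors and PI3-kinase. In myeloid cells these proteins serve the leukocyte integrins during adhesion, migration and phagocytosis.

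The promoters of 3 of the genes are shown because these genes behaved differently at end stage in MG over all libraries: Tln1 rose, Prex1 fell, and Vcl, which holds the CArG box, passed in neither direction. Each is the 250 bases before the transcription start in RefSeq (GRCm38.p6), written 5′ to 3′ on the gene's own strand, with matches to the searched motifs in capitals. The Tln1 window is chr4:43562584-43562833 (minus strand), that of Prex1 chr2:166713833-166714082 (minus strand) and that of Vcl chr14:20929148-20929397 (plus strand).
Tln1: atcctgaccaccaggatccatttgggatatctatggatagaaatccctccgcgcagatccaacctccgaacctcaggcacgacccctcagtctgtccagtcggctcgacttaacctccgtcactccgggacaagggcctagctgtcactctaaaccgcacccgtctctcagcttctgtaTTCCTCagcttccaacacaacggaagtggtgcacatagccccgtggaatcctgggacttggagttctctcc
Prex1: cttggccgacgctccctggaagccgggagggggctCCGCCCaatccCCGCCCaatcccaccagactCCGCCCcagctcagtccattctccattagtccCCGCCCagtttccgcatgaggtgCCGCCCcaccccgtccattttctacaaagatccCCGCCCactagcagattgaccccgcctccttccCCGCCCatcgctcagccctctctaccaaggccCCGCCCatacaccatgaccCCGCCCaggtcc
Vcl: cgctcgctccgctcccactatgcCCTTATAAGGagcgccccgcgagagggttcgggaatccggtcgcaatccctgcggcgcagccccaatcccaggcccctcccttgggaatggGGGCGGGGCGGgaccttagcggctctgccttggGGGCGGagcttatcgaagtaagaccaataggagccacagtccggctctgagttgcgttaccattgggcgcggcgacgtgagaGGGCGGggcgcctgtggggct
A promoter entry was matched for 7 of the 8 genes, all but Pxn. Both strands were searched for the CArG box, which is the serum response factor motif, for GAGGAA, an ETS core as read by PU.1, for TGANTCA, the AP-1 motif, for GGGCGG, the GC box, and for GCCATNTTG, the YY1 motif. The capitals in Tln1 are a single GAGGAA read on the reverse strand, a motif held by 23.25% of the 32851 promoters of this length. Those in Prex1 are 9 GGGCGG matches read on the reverse strand, and those in Vcl are a CArG box at positions -227 to -218 from the start and 4 GGGCGG matches, of which 2 overlap by 1 base. The CArG box was in 1.47% of all promoters and GGGCGG in 32.74%. Of the promoters not printed, Zyx held 1 TGANTCA (6.75% of promoters) and 2 GGGCGG, Flna held 3 GGGCGG, and Fermt3 and Vasp held no match. GCCATNTTG, in 1.33% of promoters, was in none of the 7.

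The libraries differed in what they held besides the labelled cells, and these values are repeated beside the results they move with. FPKM summed to 484604 to 618562 in non-grafted MG and to 625386 to 986659 in non-grafted MP, and the read depth is unknown. The CD11b gene Itgam was present in every library. Red blood cell (erythroid) genes, of which 3 were found, summed to 0.37 to 16509 FPKM in non-grafted MG. In non-grafted MP they summed to 2515 to 116394 FPKM. S100a8, an abundant neutrophil transcript, was above 10000 FPKM in 4 of the 33 non-grafted MG libraries, namely G93A onset replicate 5, G93A end-stage replicate 4, and WT replicates 1 and 2 of the end-stage age. The other 29 stood between 8.99 and 2019.68 FPKM, while the lowest non-grafted MP library stood at 24808 FPKM. Onset replicates 1 and 4 held Mbp, the myelin basic protein transcript, at 23950 and 18996 FPKM, and the other 3 onset libraries at 568.32 to 2194 FPKM. In these bulk samples fewer cells of a type and less RNA per cell cannot be told apart.

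In non-grafted mice, levels of 7 of the 8 genes were higher in MP than in MG, and Prex1 was the exception. Group means of Tln1 were, in ascending order, 8.90 FPKM in B6 MG of the onset age, 9.04 in B6 MG of the end-stage age, 13.6 in pre-symptomatic G93A MG, 14.2 and 25.2 in WT MG of the 2 ages, and 26.1, 32.6 and 34.5 in G93A MG at the early symptomatic stage, onset and end stage. The MP groups followed with 52.9 FPKM before symptoms, 56.4 at the early stage, 63.4 at end stage, 64.7 in the libraries described as WT and 90.2 at onset. The libraries of every neighbouring pair in that order overlapped. Prex1 had the flattest profile, from a group mean of 25.2 FPKM in B6 MG of the end-stage age to 42.5 FPKM in pre-symptomatic G93A MG, and again all neighbours overlapped. Its MP means, 26.2 to 32.7 FPKM, lay inside that range. The highest levels per length were those of Zyx in MP, with group means of 252 to 392 FPKM, and the lowest group mean was that of Vcl in MG at the early symptomatic stage (1.98 FPKM).

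**Figure D1:**
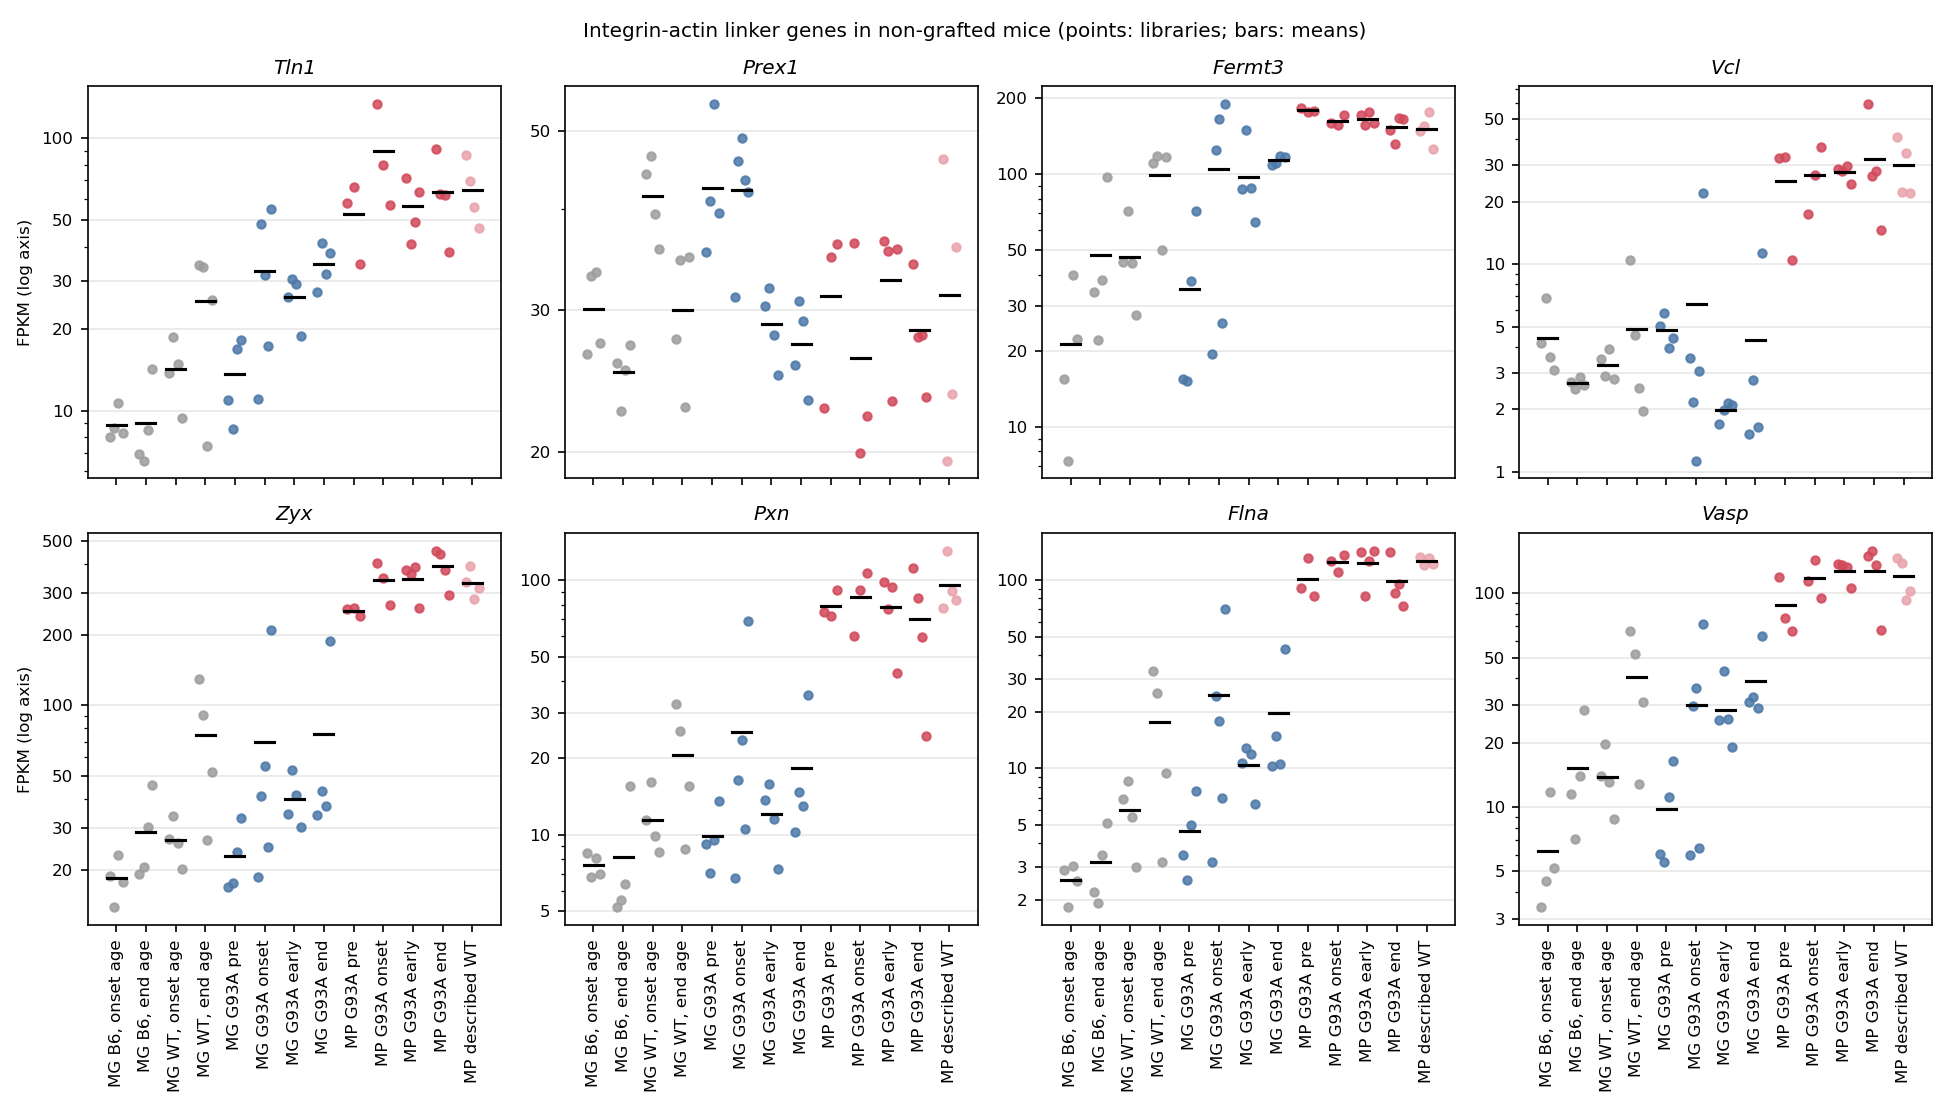
FPKM (log axis) of the 8 genes in each of the 51 non-grafted libraries, in 13 groups, with points for libraries and bars for arithmetic group means. MP libraries (right of each panel) stand above most MG libraries for every gene but Prex1, and single MG libraries of the onset, end-stage and WT groups reach far above the rest of their group for Zyx, Pxn and Flna.

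Across the 13 non-grafted group means on the log2(FPKM + 1) scale, the 7 genes other than Prex1 had pairwise Pearson correlations of 0.681 (Vcl with Fermt3) to 0.991 (Flna with Pxn), while Prex1 correlated with them at -0.408 (Vasp) to -0.23 (Vcl). These 13 points share the split between MG and MP, so the values are given as a description only. Over the 11773 genes with a mean of at least 1 FPKM, the members included, those with the profile most like that of Tln1 were Taok3 (0.992), Dock11 (0.99), Cers6 (0.987), Akap13 (0.986) and Arhgap30 (0.986). Among those most like Prex1 were Gpr165 (0.794), Ralgps1 (0.773), Rassf2 (0.768) and Crkl (0.76), all at lower correlations.

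The first comparison followed MG of G93A mice from the pre-symptomatic stage to end stage. Tln1, Fermt3, Vasp, Flna and Zyx rose and Prex1 fell, while Pxn and Vcl did not pass the test. Differences are of mean log2(FPKM + 1), which understates the change of low genes, from limma fitted over all 33 MG libraries with Benjamini-Hochberg adjustment over all genes tested and a threshold of 0.05. At that threshold 55.9% of the 11750 genes tested changed, 24.8% higher and 31.1% lower. The members' 5 higher and 1 lower of 8 stand against those shares, and their median difference of 1.33 stands beside 0.03 over all genes. The 3 later stages are all compared with the same 4 pre-symptomatic libraries, so the differences by stage share them. Stage also went with age, from a mean of 50.8 to 169.4 days, and the youngest controls were at 107.3 days. Stage and age therefore cannot be told apart in these differences.

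Of the integrin activators, Tln1 stood at 10.96, 8.54, 16.86 and 18.11 FPKM before symptoms and at 27.19, 41.27, 31.88 and 37.78 FPKM at end stage. Every end-stage library was above every pre-symptomatic one, and the difference was 1.32 ± 0.40 (SE; limma adjusted p = 0.0081). Kindlin-3, Fermt3, stood at 15.45, 15.14, 37.7 and 71.71 FPKM and then at 108.8, 110.69, 117.72 and 116.5 FPKM. The wide pre-symptomatic spread of Fermt3 gave way to a narrow one, 35 ± 26.7 against 113.4 ± 4.35 FPKM (mean ± SD, n = 4 each), with a difference of 1.96 ± 0.61 (adjusted p = 0.00944).

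Of the actin-end proteins, Vasp stood at 6.05, 5.53, 11.13 and 16.51 FPKM before symptoms and at 30.93, 32.66, 29.09 and 63.09 FPKM at end stage, a difference of 1.93 ± 0.58 (adjusted p = 0.0076). Zyx stood at 16.81, 17.51, 23.74 and 33.3 FPKM and then at 34.12, 43.35, 37.16 and 188.55 FPKM, a difference of 1.33 ± 0.55 (adjusted p = 0.0401). Flna stood at 3.45, 2.55, 5.01 and 7.63 FPKM and then at 10.31, 14.87, 10.54 and 42.94 FPKM, a difference of 1.70 ± 0.62 (adjusted p = 0.0236). In all 3 genes the groups did not overlap, and the highest end-stage library was replicate 4, the one with S100a8 at 20413 FPKM. Without that replicate Zyx (0.76, adjusted p = 0.2155) and Flna (1.25, adjusted p = 0.1001) missed the threshold. Both also missed it without pre-symptomatic replicate 1 (Zyx 1.21, Flna 1.61) or replicate 2 (Zyx 1.23, Flna 1.5), and Zyx missed it without pre-symptomatic replicate 3 (1.37, adjusted p = 0.0583), with no filter on low values (1.33, adjusted p = 0.0669) and in a fit of only the 2 groups compared (1.33, adjusted p = 0.0508).

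Prex1, the Rac exchange factor, went the other way. It stood at 35.43, 40.93, 54.04 and 39.61 FPKM before symptoms and at 25.69, 30.83, 29.09 and 23.24 FPKM at end stage, so that every end-stage library was below every pre-symptomatic one, with a difference of -0.62 ± 0.15 (adjusted p = 0.00208). Pxn, the adaptor, stood at 9.21, 7.07, 9.52 and 13.59 FPKM and then at 10.21, 14.71, 12.92 and 35.27 FPKM, with overlapping groups and a difference of 0.70 ± 0.47 (adjusted p = 0.202). Vcl, vinculin, stood at 5.03, 5.83, 3.93 and 4.42 FPKM and then at 1.51, 2.77, 1.65 and 11.34 FPKM. Of the 4 end-stage libraries, 3 were below all pre-symptomatic libraries and replicate 4 was above them all, and the difference of -0.46 ± 0.50 did not pass (adjusted p = 0.435). Without overlap between the groups, 23.1% of all genes tested were higher and 29.7% lower at end stage, against 5 and 1 of the 8 members. Controls of the onset and end-stage ages were not tested against each other. From the younger to the older WT MG, Prex1 went from 35.73 to 46.61 FPKM down to 22.75 to 34.89 FPKM. Group means there rose for Tln1 (14.2 to 25.2 FPKM) and Fermt3 (47.2 to 99.1 FPKM). In B6 MG the means were 30.1 and 25.2 FPKM for Prex1, 8.90 and 9.04 for Tln1 and 21.2 and 47.9 for Fermt3.

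Markers of other cells moved with these differences. Of 12 neutrophil genes, 6 were higher at end stage, and their summed level was 42.02 to 422.04 FPKM before symptoms and 556.25 to 52444 FPKM at end stage. Of 8 oligodendrocyte genes, 7 were lower (27812 to 32389 FPKM summed before symptoms, 1835 to 11257 at end stage), as were 7 of 8 astrocyte genes (6590 to 8573 against 630 to 5594 FPKM) and 7 of 8 neuron genes (390.6 to 547.41 against 18.38 to 150.47 FPKM). Of 8 microglia genes 2 were higher (1292 to 6689 FPKM summed before symptoms, 2928 to 8712 at end stage). Itgam stood at 30.16 to 87.44 FPKM before symptoms and at 124.06 to 178.38 FPKM at end stage. None of the neutrophil, oligodendrocyte, astrocyte or neuron genes was at 0 in all libraries of a compared group. When the neutrophil and oligodendrocyte scores of each library entered the fit as terms, Prex1 kept its call (-0.83 ± 0.16, adjusted p = 0.000578) and no other member passed. In that fit Tln1 differed by 0.18 (adjusted p = 0.703), Fermt3 by 0.16 (0.823 adjusted) and Vasp by 0.09 (0.865 adjusted), and the signs of Pxn (-0.60 ± 0.25, adjusted p = 0.0981), Zyx (-0.11, adjusted p = 0.799) and Flna (-0.07, adjusted p = 0.908) turned. That fit called 19% of all genes. Neither summed level overlapped between the 2 stages, so the part of the markers and that of the stage cannot be told apart.

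**Figure D2:**
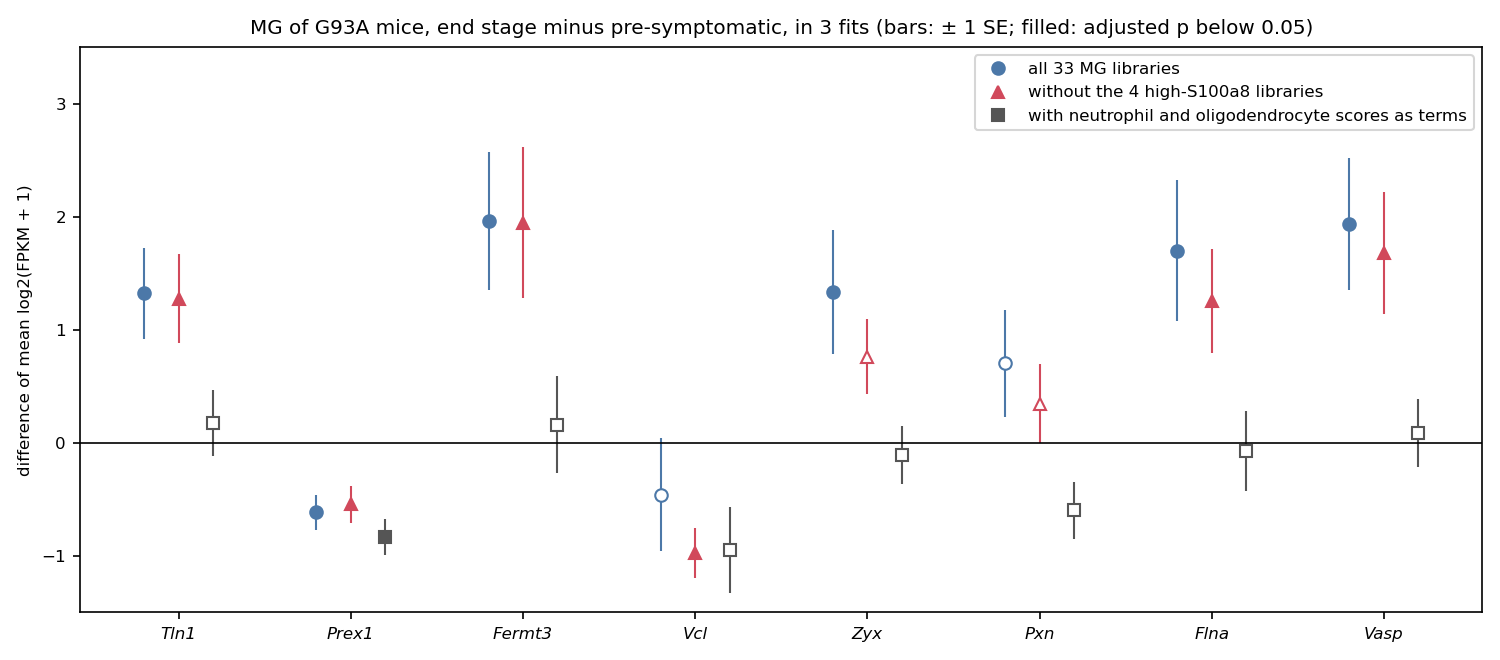
Difference of mean log2(FPKM + 1), end stage minus pre-symptomatic, in MG of G93A mice for each gene, from all 33 MG libraries (circles), without the 4 libraries with S100a8 above 10000 FPKM (triangles) and with neutrophil and oligodendrocyte scores as terms (squares). Bars are ± 1 SE and filled symbols have an adjusted p below 0.05. Prex1 is filled and negative in all 3 fits, while the positive differences of Tln1, Fermt3, Zyx, Flna and Vasp lie near 0 once the scores are in the fit.

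The 4 MG libraries high in S100a8 included the highest MG library for every member but Prex1, and stood wholly above the rest for 4 of them. Zyx stood at 90.59 to 209.31 FPKM in them and at 13.83 to 55.13 FPKM in the other 29 MG libraries, Pxn at 25.5 to 68.92 against 5.19 to 23.44 FPKM, Flna at 25.07 to 70.65 against 1.83 to 24.12 FPKM and Vasp at 51.67 to 71.41 against 3.4 to 43.21 FPKM. For these 4 genes the 2 sets of libraries did not overlap. They overlapped for Tln1 (33.56 to 54.78 against 6.56 to 48.28 FPKM), Fermt3 (111.06 to 189.76 against 7.36 to 165.61), Vcl (4.57 to 22.11 against 1.13 to 6.9) and Prex1 (23.24 to 41.97 against 22.48 to 54.04). Without these 4 libraries, the end-stage differences of Tln1 (1.27), Fermt3 (1.95), Flna (1.25), Vasp (1.68) and Prex1 (-0.55) still passed, Zyx did not (0.76, adjusted p = 0.0512), and the lower level of Vcl passed (-0.98 ± 0.22, adjusted p = 0.00111). With end-stage replicate 4 gone, all 3 remaining end-stage libraries held Vcl below the 4 pre-symptomatic ones.

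**Figure D3:**
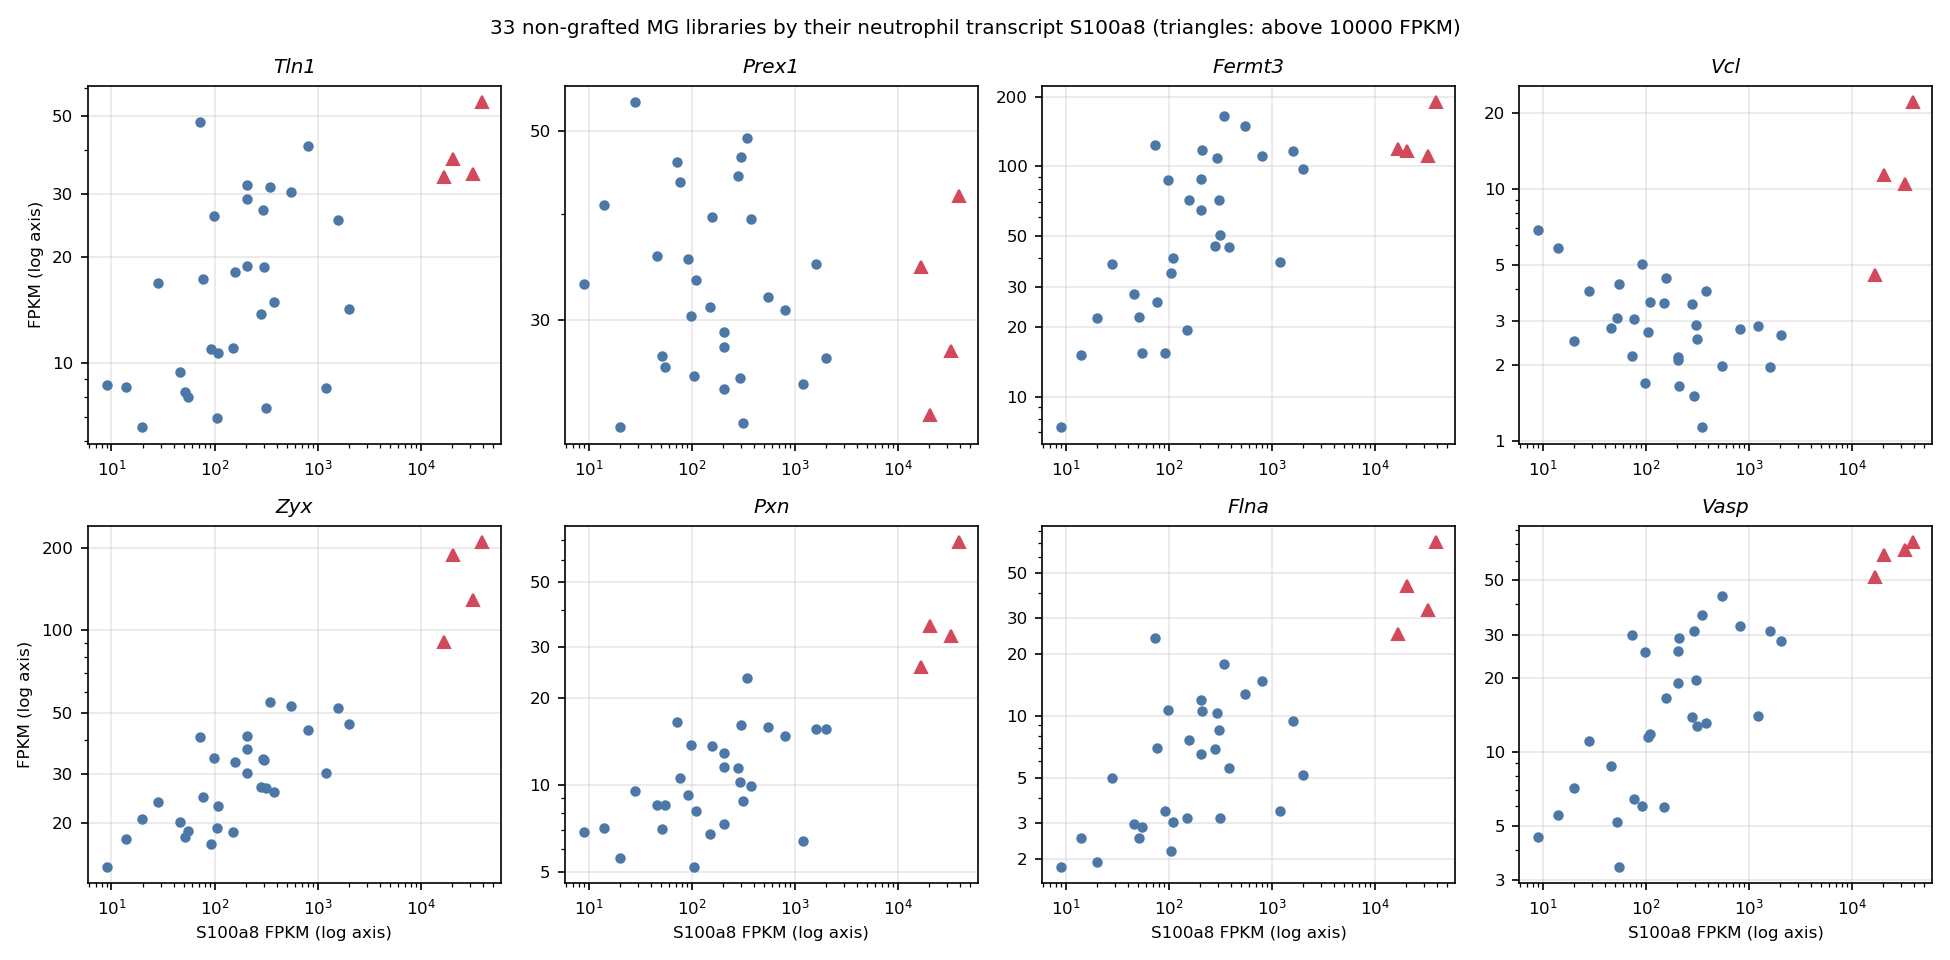
FPKM of each gene against FPKM of the neutrophil transcript S100a8 (both axes log) in the 33 non-grafted MG libraries, with triangles for the 4 libraries above 10000 FPKM of S100a8. The triangles lie above all circles for Zyx, Pxn, Flna and Vasp, and within or across the range of the circles for Tln1, Prex1, Fermt3 and Vcl.

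At the earlier stages fewer members passed. At the early symptomatic stage Fermt3 (64.84 to 149.34 FPKM; 1.67 ± 0.61, adjusted p = 0.0366) and Vasp (19.12 to 43.21 FPKM; 1.5 ± 0.58, adjusted p = 0.0462) rose, and Prex1 (24.91 to 31.99 FPKM; -0.53 ± 0.15, adjusted p = 0.0117) fell. These 2 higher and 1 lower of 8 compare with 19.2% and 16% of all genes (35.2% in all), and the summed neutrophil genes stood at 278.23 to 1458 FPKM and the summed oligodendrocyte genes at 1823 to 13373 FPKM, the latter without overlap with the pre-symptomatic libraries. With the marker-score terms Fermt3 (0.61, adjusted p = 0.275) and Vasp (0.47, adjusted p = 0.217) missed the threshold, Prex1 kept its call (-0.68) and Vcl passed as lower (-1.05, adjusted p = 0.0285), where 11.4% of genes were higher and 8.16% lower. Tln1, at 26.1, 30.52, 29.07 and 18.75 FPKM, was above all pre-symptomatic libraries with a difference of 0.93 that missed the threshold (adjusted p = 0.0697). Vcl, at 1.69, 1.98, 2.14 and 2.1 FPKM, was below all of them with -0.95 (adjusted p = 0.124). Among all genes, 21.4% were higher and 22.9% lower without overlap at this stage, against 2 members each way. Fitted on these 2 groups alone, 7 members passed (5 higher, 2 lower, against 24.1% and 22.4% of genes), and the same numbers passed without the libraries high in S100a8 (22.2% and 20% of genes). Without pre-symptomatic replicate 1 or 2, or early replicate 1, 2 or 3, only Prex1 remained called.

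At onset, Tln1 (1.03 ± 0.38, adjusted p = 0.0481) and Flna (1.60 ± 0.59, adjusted p = 0.0478) were just past the threshold, 2 of 8 members higher against 10.3% of all genes (25.4% called in all, with 15% lower). In the onset libraries the summed neutrophil genes stood at 189 to 72251 FPKM and the summed oligodendrocyte genes at 820 to 31867 FPKM. Summed erythroid genes stood at 126.64 to 16509 FPKM at onset and at 17.15 to 109.01 FPKM before symptoms. All 8 members overlapped between onset and pre-symptomatic libraries, against 2.03% of genes that were higher and 0.383% that were lower without overlap. Tln1 stood at 11, 48.28, 31.53, 17.27 and 54.78 FPKM in onset replicates 1 to 5, and Flna at 3.19, 24.12, 17.85, 6.97 and 70.65 FPKM. The low libraries in both genes were replicates 1 and 4, which held Mbp at 23950 and 18996 FPKM and Itgam at 37.15 and 51.66 FPKM, against 254.9 to 267.61 FPKM of Itgam in the other 3. With the marker-score terms Tln1 differed by 0.10 and Flna by 0.25 (adjusted p = 0.9995 each). Both calls were also lost with the replicate block (0.79 and 1.07) and without the libraries high in S100a8 (0.79 and 1.07). These 2 settings are not separate checks. Each takes onset replicate 5 out of the estimate, as the only MG library with that number or as 1 high in S100a8. The calls were lost as well with median-ratio scaling (0.92 and 1.49) and, at unchanged size, with no filter and in a fit of only these 2 groups. Leaving out pre-symptomatic replicate 1, 2 or 3, or onset replicate 2, 3 or 5, left no member called, while leaving out onset replicate 1 gave 6 (32.6% of genes higher) and replicate 4 gave 5 (28.6%). Without both of the libraries high in Mbp, a setting chosen after seeing the data, 6 members were higher, with Tln1 at 1.67 and Flna at 2.60, where 73.8% of genes were called and 42.3% were higher. Prex1 was level with its pre-symptomatic value at onset (42.3 ± 6.79 against 42.5 ± 8.04 FPKM; n = 5 and 4).

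Against WT controls of the same age, no member passed in MG. At onset the 2 largest differences from WT were those of Flna (24.6 ± 27.1 against 6.00 ± 2.36 FPKM; 1.29 ± 0.59, adjusted p = 0.125) and Tln1 (32.6 ± 18.98 against 14.2 ± 3.80 FPKM; 0.96 ± 0.38, adjusted p = 0.0828), both with an unadjusted p below 0.05 in limma. The 0 of 8 members compares with 4.31% of all genes tested (1.04% higher, 3.27% lower), of which 4076 had an unadjusted p below 0.05. Leaving out onset replicate 1 gave 2 called members (42.4% of genes) and leaving out replicate 4 gave 1 (36.2%), and leaving out both gave 6 (Tln1 1.60, Flna 2.28), where 67.7% of genes were called. Against B6 mice of that age in place of WT, 7 members were higher in G93A, among them Flna (2.20), Fermt3 (1.96), Tln1 (1.55) and Prex1 (0.47), where 55.1% of genes were called and 29.4% were higher. The B6 libraries held summed oligodendrocyte genes at 25439 to 32230 FPKM and Itgam at 14.49 to 59.11 FPKM, and the part of these in the differences was not tested.

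At end stage no member differed from WT by the threshold or by an unadjusted p below 0.05 in limma, against 7% of genes called (2.81% higher, 4.19% lower) and 2867 genes at that unadjusted p. Tln1 stood at 34.29, 33.56, 7.44 and 25.43 FPKM in WT MG of that age, and Fermt3 at 111.06, 118.37, 50.14 and 116.69 FPKM, overlapping with end-stage G93A for both genes. Differences ranged from -0.28 ± 0.50 for Vcl to 0.62 ± 0.40 for Tln1 (adjusted p = 0.35). WT replicates 1 and 2 are among the 4 libraries high in S100a8, and the summed neutrophil genes stood at 800.38 to 81840 FPKM in this WT group, with 0 of the 12 called. Against B6 in place of WT, Tln1 (34.5 ± 6.24 against 9.04 ± 3.52 FPKM; 1.86 ± 0.40, adjusted p = 0.00117) and Flna (2.12 ± 0.62, adjusted p = 0.00882) were higher in G93A, 2 of 8 members where 18.3% of genes were higher (46.2% called in all). The B6 libraries held summed oligodendrocyte genes at 14241 to 24502 FPKM against 1835 to 11257 in G93A, and Itgam at 31.87 to 110.19 against 124.06 to 178.38 FPKM. All 8 members overlapped between G93A and WT at both ages, where 1.11% and 5.97% of genes were higher without overlap and 1.87% and 10.6% lower.

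The other genes of the pathway, in 6 lists, gave the members' surroundings in MG at end stage against the pre-symptomatic stage. In that comparison 24.8% of all genes were higher and 31.1% lower, the shares beside which the counts of each list stand. Of 11 integrin genes tested (12 listed), 7 were higher and 1 lower, with Itgax, the CD11c chain, from 0.94 to 58.3 FPKM (4.86), Itgb2, the shared chain of the leukocyte integrins, from 56.7 to 379 FPKM (2.95) and Itga5, the fibronectin receptor chain, at 2.85. Of 9 other activators and inhibitors tested, 5 were higher, among them the Rap1 effector gene Apbb1ip (1.51) and the adaptor gene Dok1 (1.47), and 1 was lower, the kindlin-2 gene Fermt2, from 45.2 to 7.38 FPKM (-2.76). Fermt2 and Fermt3 therefore went in opposite directions, while the astrocyte and neuron genes above were lower at the same stage. Of 6 genes of the ILK-PINCH-parvin complex, 3 were higher (Parvg 2.06) and 2 lower (Parva -2.33, Lims2 -1.33).

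Of 14 adhesion adaptors and kinases, 3 were higher and 5 lower, with the paralogous kinase genes Ptk2b (2.22) and Ptk2 (-1.99) on opposite sides and the paxillin relative Lpxn higher (2.05). Of 16 actin-binding and assembly genes, 11 were higher and 1 lower, led by Arpc1b (2.60), Coro1a (2.40) and Pfn1 (1.96). Of 11 Rac-activation genes tested, 6 were higher and none lower, among them the leukocyte GTPase gene Rac2, from 29.1 to 230 FPKM (2.98), and the exchange factor genes Vav1 (1.95) and Dock2 (1.66), whereas Prex1 of the same function fell. The median differences were 1.5 for the integrins, 0.37 for activators and inhibitors, 0.61 for the ILK complex, -0.24 for adaptors and kinases, 0.97 for actin genes and 1.25 for Rac activation, beside 0.03 for all genes. At onset the counts of higher and lower genes in the same order of lists were 4 and 0, 0 and 1, 2 and 2, 0 and 4, 7 and 0, and 2 and 0, and at the early stage 7 and 1, 3 and 0, 2 and 0, 2 and 4, 10 and 0, and 4 and 0. Among all genes, 10.3% were higher and 15% lower at onset, and 19.2% and 16% at the early stage. At end stage against WT of the same age, only Itgax (2.99), Itga5 (1.58) and the actin-binding gene Lasp1 (0.65) were called, all higher in G93A, and none in the other 4 lists. Over all genes, 2.81% were higher and 4.19% lower in that comparison.

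In MP, the stages of G93A mice did not differ by the threshold in any member. End stage against the pre-symptomatic stage called 0 of 8 members and 0.00975% of 10260 genes, which is Il1r2, the interleukin-1 decoy receptor gene (1.87), named after its value was seen. An unadjusted p below 0.05 was reached by 671 genes and by 1 member, Zyx. Zyx stood at 257.72, 258.38 and 241.02 FPKM before symptoms and at 455.39, 441.68, 375.37 and 294.42 FPKM at end stage, with every end-stage library above every pre-symptomatic one and a difference of 0.61 ± 0.20 (limma adjusted p = 0.575). Fermt3 lay lower without overlap, at 182.74, 176.25 and 178.38 against 149.94, 131.65, 166.4 and 166.01 FPKM, where 1.31% of genes were higher and 4.81% lower in this way. The other 6 overlapped, with Tln1 at 52.9 ± 16.5 and 63.4 ± 21.6 FPKM and Prex1 at 31.3 ± 7.45 and 28.3 ± 4.43 FPKM (n = 3 and 4). End-stage replicate 4, whose FPKM sum was the highest of all (986659) and whose Itgam was 97.44 FPKM, was the lowest end-stage library for Tln1, Prex1, Vcl, Zyx, Pxn, Flna and Vasp. Summed erythroid genes stood at 7522 to 22789 FPKM before symptoms and at 3341 to 116394 FPKM at end stage. In the libraries described as WT they stood at 2515 to 30758 FPKM. Their part in the members' levels was not tested.

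The other MP comparisons also called no member, against 0% of genes in each. At onset 474 genes and no member had an unadjusted p below 0.05 in limma, at the early stage 535 genes and 1 member, Zyx, and between end stage and the libraries described as WT 662 genes and no member. Zyx was above the pre-symptomatic libraries without overlap at onset (339.8 ± 68.4 FPKM) and at the early stage (346 ± 58.2 FPKM), where 2.76% and 1.49% of genes were, and these comparisons share the same 3 pre-symptomatic libraries. Fermt3 was below them without overlap at onset, as were 5.77% of genes. Against the libraries described as WT all 8 overlapped, where 1.31% of genes were higher and 2.27% lower without overlap, with Pxn (70.03 ± 37 against 95.4 ± 23.9 FPKM; -0.61 ± 0.36) and Flna (99.1 ± 29.6 against 126.5 ± 6.24 FPKM; -0.39 ± 0.23) furthest apart. None of the genes in the 6 pathway lists was called in any of the 4 MP comparisons.

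Between the 2 cell sources, MP held more of 7 of the 8 genes than MG before symptoms. The largest difference was that of Flna, at 90.76, 131.85 and 82.48 FPKM in MP and 2.55 to 7.63 FPKM in MG (4.23 ± 0.57, adjusted p = 7.28e-08), followed by Zyx (3.46 ± 0.49), Vasp (3.11 ± 0.54), Pxn (2.91 ± 0.48), Fermt3 (2.61 ± 0.54), Vcl (2.03 ± 0.52) and Tln1 (1.89 ± 0.41). For each of these 7 the MP libraries were all above the MG libraries, and the adjusted p was at most 0.00096. Prex1 was the exception, at 22.69, 34.88 and 36.22 FPKM in MP and 35.43 to 54.04 FPKM in MG (-0.44 ± 0.23, adjusted p = 0.102). The 7 of 8 higher compare with 23.6% of 11773 genes (54.7% called in all, 31% lower), and the groups did not overlap for 23.8% of genes on the higher side and 30.8% on the lower. With libraries rescaled to their median ratio, the same 7 stayed higher and Prex1 became lower in MP (-0.93, adjusted p = 0.000691). The tissues, the yields and the cells that came through the beads differed too: all 12 neutrophil genes and all 6 monocyte genes tested were higher in MP, 7 of 8 microglia genes were lower, and the summed neutrophil genes stood at 79422 to 187990 FPKM in MP. The macrophage genes summed to 280.71 to 1275 FPKM in MP and to 403.84 to 1799 FPKM in MG, overlapping.

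At end stage 5 members were higher in MP, against 13.1% of genes (39.4% called in all). These were Vcl (32.2 ± 19.1 against 4.32 ± 4.72 FPKM; 2.82 ± 0.48, adjusted p = 1.48e-05), Zyx (2.74 ± 0.46), Flna (2.48 ± 0.52), Pxn (1.85 ± 0.45) and Vasp (1.69 ± 0.50, adjusted p = 0.00666). The integrin activators no longer passed: Tln1 differed by 0.81 ± 0.38 (adjusted p = 0.0862) and Fermt3 by 0.43 (adjusted p = 0.52). Tln1 passed without MP end-stage replicate 4 (1.03, adjusted p = 0.0422), with median-ratio scaling (0.77, adjusted p = 0.04998) and in a fit of only the groups compared (0.81, adjusted p = 0.0407). Prex1 was nearly level, at 28.3 ± 4.43 FPKM in MP and 27.2 ± 3.40 FPKM in MG (0.05). Fermt3, Vcl, Zyx, Flna and Vasp were above MG in every MP library, as were 11.9% of genes. The 12 neutrophil and 6 monocyte genes were again all higher in MP and the 8 microglia genes all lower. Of 7 Schwann cell genes tested, 3 were lower too. The macrophage genes summed to 293.1 to 505.76 FPKM in MP, below the 1379 to 3477 FPKM in MG. Neutrophil genes summed to 115441 to 216177 FPKM in MP. The part of these cells in the members' differences was not tested.

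**Figure D4:**
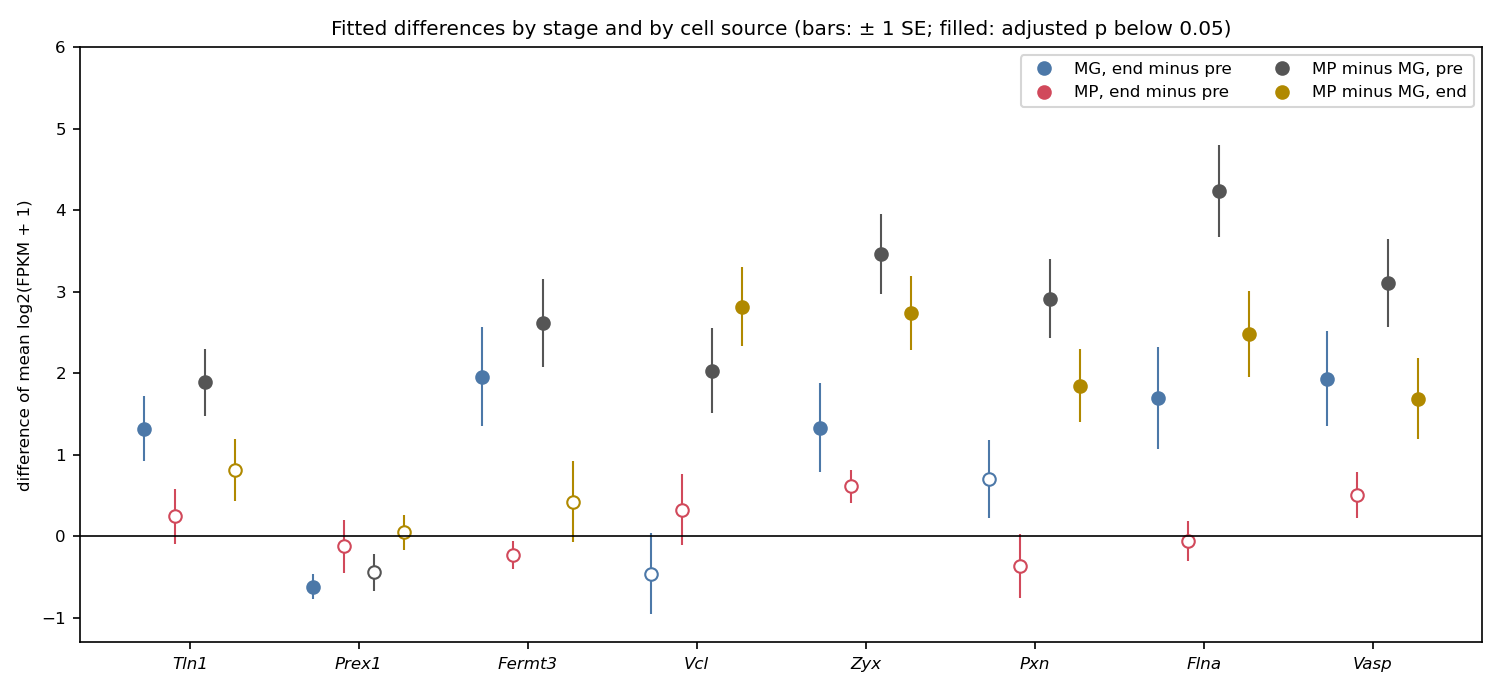
Difference of mean log2(FPKM + 1) for each gene within MG and within MP (end stage minus pre-symptomatic) and between MP and MG at each of these stages, with bars of ± 1 SE and filled symbols for an adjusted p below 0.05. The MP minus MG differences of Flna, Zyx, Vasp, Pxn, Fermt3 and Tln1 are smaller at end stage than before symptoms, which passed as a change between stages for Fermt3 only, and all differences within MP are open symbols.

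Whether the change from the pre-symptomatic stage to end stage itself differed between MP and MG was tested as an interaction. Only Fermt3 passed, 1 of 8 against 19.8% of genes: its MP level went from 179 ± 3.31 to 153.5 ± 16.5 FPKM while its MG level went from 35 ± 26.7 to 113.4 ± 4.35 FPKM, an interaction of -2.19 ± 0.74 (adjusted p = 0.0324). Flna, at -1.75, did not pass (adjusted p = 0.0998). The Fermt3 interaction kept its sign in every setting tried, from -2.62 to -1.75, with adjusted p from 0.00969 to 0.0846. Marker-score terms, with which the rise of Fermt3 within MG no longer passed, were not among these settings. The part of other cells in the interaction was not tested. It missed the threshold with no filter on low values (-2.19, adjusted p = 0.0548) and without MG pre-symptomatic replicate 1 (-1.91) or 2 (-1.90), MG end-stage replicate 1 (-2.21) or 3 (-2.17), MP pre-symptomatic replicate 2 (-2.20) or 3 (-2.19), or MP end-stage replicate 2 (-2.12).

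The pathway lists between MP and MG at end stage held genes on both sides, where 13.1% of all genes were higher in MP and 26.3% lower. Of 12 integrin genes, 2 were higher in MP (Itgb7 3.59) and 6 lower (Itgb5 -4.59, Itgax -4.36), and of 9 activators and inhibitors 1 was higher, the Rap1 exchange factor gene Rasgrp2 (3.19), and 2 lower. Those 2 were the relatives of members, Tln2 (-3.34) and Fermt2 (-2.09), with Tln2 listed at 0 in all end-stage MP libraries. Of the ILK complex Lims1 (1.14) and Rsu1 (0.76) were higher and Parva (-1.83, listed at 0 in MP) lower. No adaptor or kinase was higher and 7 of 14 were lower (Tns3 -2.31, Lpxn -2.16, Tns1 -1.65). Of 16 actin genes 6 were higher (Actn1 1.97, Coro1a 1.89) and 1 lower (Evl -2.48, a relative of Vasp), and of 11 Rac-activation genes 2 were higher (Vav3 2.91, Rac2 2.81) and 1 lower (Rac1 -0.48).

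The grafted mice were measured in a separate table that may have been scaled separately, so their levels are not compared with those of non-grafted mice. In grafted MG, 0 of 8 members passed by donor or by stage in each of the 4 comparisons, against 0% of 11143 genes. In limma an unadjusted p below 0.05 was reached by 1229 genes between donors at the early stage, by 53 at end stage, by 95 between stages with G93A marrow and by 1011 with WT marrow, and by no member in any of them. Tln1 stood at 88.95, 103.14 and 78.37 FPKM with G93A marrow at the early stage and at 66.04, 102.7 and 42.2 FPKM with WT marrow, overlapping. The lowest of these, WT marrow replicate 3, held Mbp at 21258 FPKM. At end stage Tln1 stood at 71.59, 94.76 and 73.25 FPKM with G93A marrow and at 80.57, 33.44 and 99.12 FPKM with WT marrow.

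Prex1 in grafted MG stood at 71.88 to 78.6 FPKM (G93A marrow) and 62.1 to 109.35 FPKM (WT marrow) at the early stage, and at 55.18 to 107.03 and 50.15 to 91.78 FPKM at end stage, overlapping throughout. Fermt3 (137.16, 135.66 and 129.56 against 100.77, 127.38 and 53.99 FPKM) and Vasp (29.96, 35.22 and 42.35 against 23.81, 25.31 and 15.72 FPKM) were lower with WT marrow without overlap at the early stage, as were 5.65% of genes, and neither passed (adjusted p = 0.523 and 0.494). Vcl (5.05, 5.41 and 6.9 against 2.82, 3.87 and 2.26 FPKM) and Flna (39.09, 47.64 and 48.86 against 30.23, 38.53 and 34.03 FPKM) were lower at end stage than at the early stage with G93A marrow without overlap, as were 8.16% of genes, with -0.78 ± 0.64 and -0.39 ± 0.42. WT marrow end-stage replicate 2 was the lowest of its group for all genes but Vasp, with Vcl at 0.09 FPKM.

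In grafted MP at the early symptomatic stage no member passed the test between donors. The test called 0 of 8 members and 0% of 10299 genes, and in limma 245 genes and no member had an unadjusted p below 0.05. Tln1 stood at 47.53, 21.47 and 50.14 FPKM with G93A marrow and at 43.17 and 51.93 FPKM with WT marrow, and Prex1 at 18.15, 28.08 and 14.98 against 21.63 and 27.14 FPKM. Both overlapped, with differences of 0.34 ± 0.41 and 0.28 ± 0.42. Fermt3 alone was lower without overlap (210.66 and 222.06 against 230.64 to 244.28 FPKM; -0.13 ± 0.29), as were 7.92% of genes.

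At end stage all 8 genes were lower in MP of recipients of WT marrow than of G93A marrow, in every library. Tln1 and Prex1 were chosen from this contrast, so it carries no test for any member and nothing is read from it. At the threshold 0% of 10299 genes were called, with 1588 genes (15.4%) at an unadjusted p below 0.05, and 14% of genes were lower without overlap. Tln1 stood at 83.36, 78.57 and 80.57 FPKM with G93A marrow and at 19.06, 21.53 and 15.57 FPKM with WT marrow, a difference of -2.06. Prex1 stood at 62.46, 60.78 and 37.37 FPKM and at 11.37, 12.46 and 9.66 FPKM, a difference of -2.14. The Tln1 libraries were tight within each donor, and the Prex1 libraries of G93A marrow were a close pair and 1 lower library.

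The other 6 genes differed by -2.27 (Pxn), -1.85 (Zyx), -1.81 (Flna), -1.76 (Vcl), -1.46 (Vasp) and -0.83 (Fermt3). Zyx stood at 587.26, 458.83 and 672.27 FPKM with G93A marrow and at 136.67, 312.03 and 88.65 FPKM with WT marrow, and Fermt3 at 338.3, 384.54 and 319.13 against 156.76, 237.88 and 197.55 FPKM. WT marrow replicate 2 was the highest of its group for all 8 genes, and replicate 3 the lowest for all but Vcl and Fermt3.

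Other measures of these 6 libraries also separated by donor. Mitochondrial transcripts took 8.84%, 4.94% and 2.84% of FPKM with WT marrow and 0.96%, 0.33% and 0.35% with G93A marrow. Itgam stood at 51.23, 184.85 and 66.55 FPKM against 323.16, 329.64 and 263.95 FPKM, and the summed oligodendrocyte genes at 438.22 to 1933 against 25.25 to 214.97 FPKM. The sum of all FPKM (713408 to 755253 against 615421 to 670943) and the summed Schwann cell genes (83.56 to 113.41 against 4.69 to 67.15 FPKM), fibroblast and smooth muscle genes (86.8 to 111.09 against 16.66 to 49.83 FPKM) and neuron genes (11.78 to 59.91 against 0.09 to 5.11 FPKM) were higher with WT marrow without overlap. Of the pathway lists, the summed integrin genes (524.29 to 1002 against 1097 to 1506 FPKM) and Rac-activation genes (1069 to 2520 against 2824 to 3537 FPKM) were lower with WT marrow, and the other activators and inhibitors were higher (716.61 to 866.38 against 403.82 to 603.81 FPKM). The numbers of genes above 1 FPKM, 7792, 9497 and 8983 against 9773, 9830 and 9410, nearly separated, and S100a8 overlapped (36592 to 53337 against 28891 to 42063 FPKM), as did the 12 neutrophil genes summed (97377 to 155951 against 116653 to 156105 FPKM). Platelets also express talin and kindlin-3, and platelet genes summed to 0.42 to 90.31 FPKM with WT marrow and 3.46 to 9.23 FPKM with G93A marrow, with Gp6 at 0 in the latter. The part of any of these in the members' difference was not tested.

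**Figure D5:**
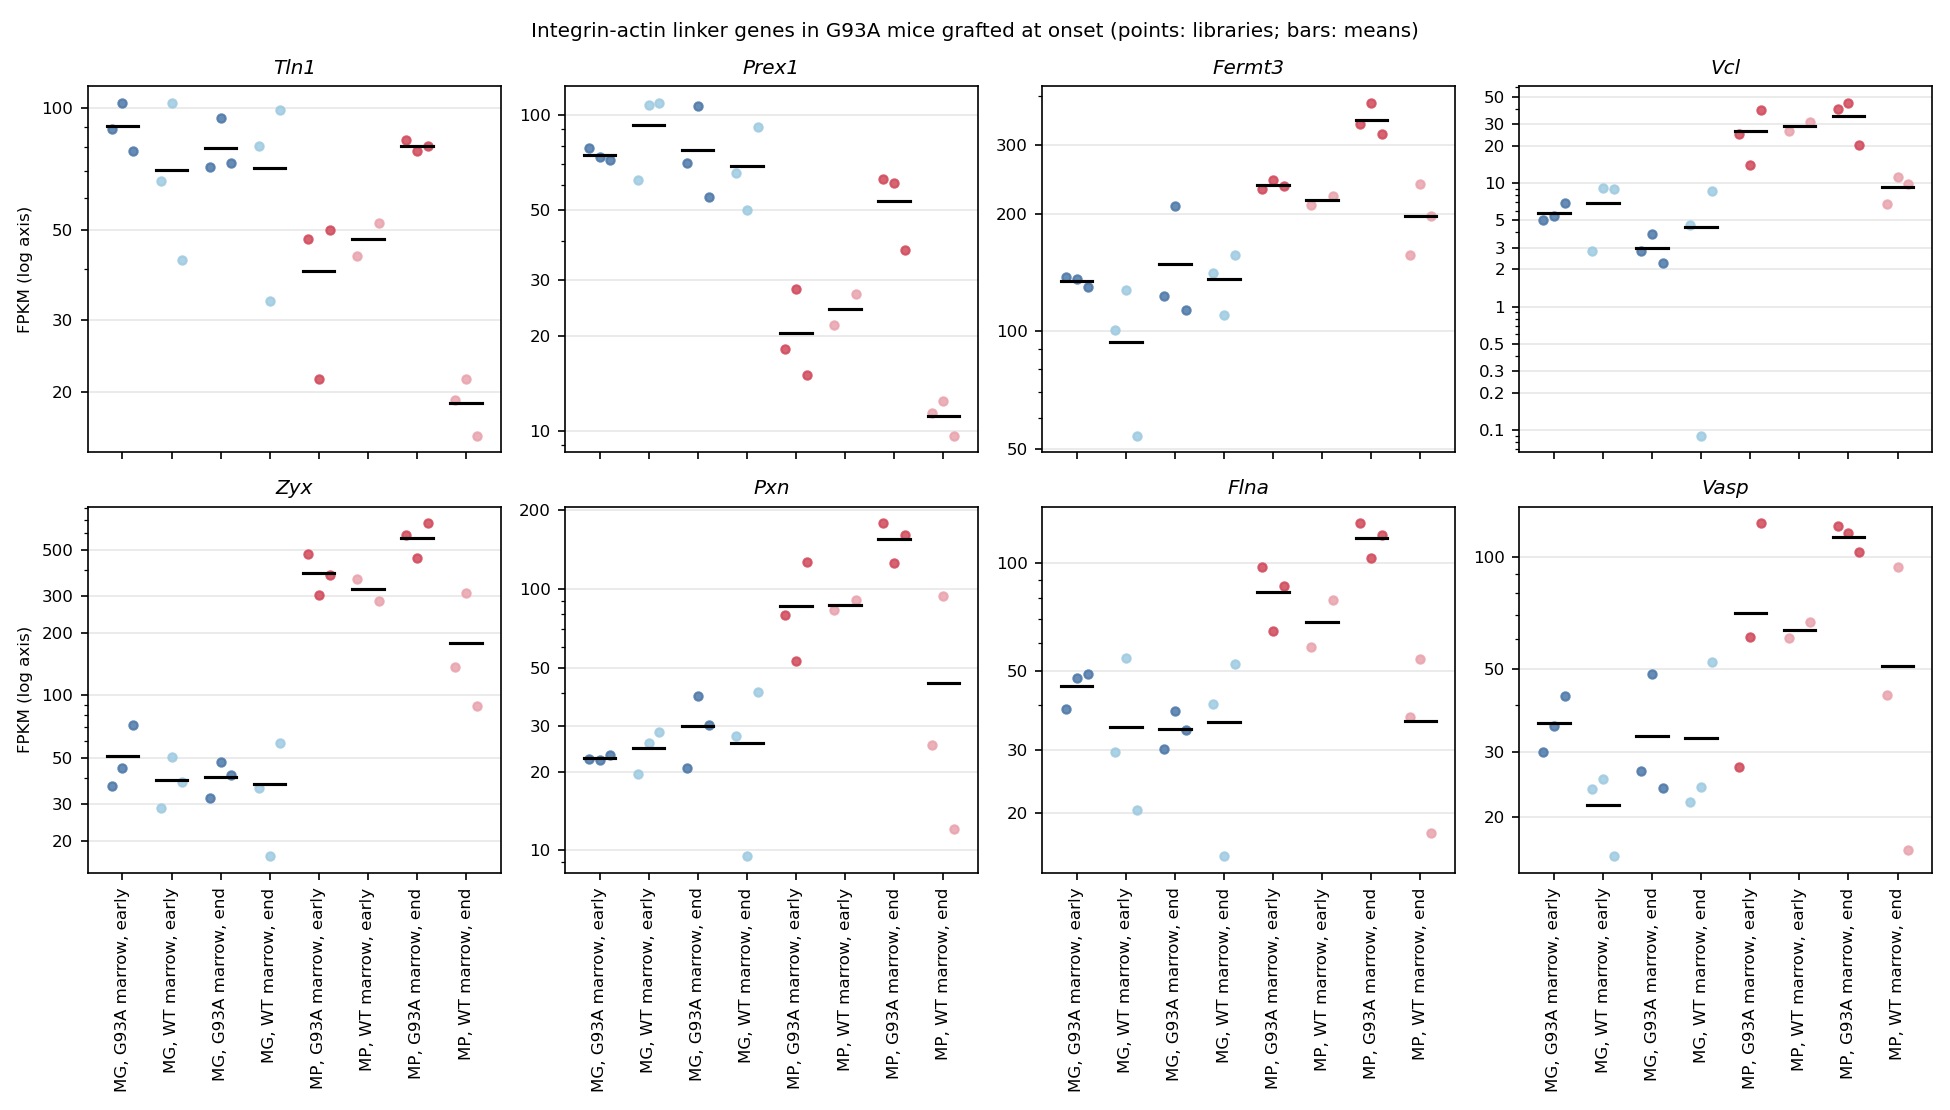
FPKM (log axis) of the 8 genes in the 23 libraries of grafted G93A recipients by cell source, marrow donor and stage, with points for libraries and bars for arithmetic group means. In the last group of each panel, MP of WT marrow at end stage, all 3 libraries lie below the 3 MP libraries of G93A marrow at end stage, while the other pairs of donors overlap for most genes.

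Set against the other grafted groups, MP of WT marrow at end stage held the lowest group mean of Tln1 (18.7 ± 2.99 FPKM), followed by 39.7 ± 15.9 and 47.6 ± 6.19 FPKM in MP at the early stage with G93A and WT marrow, 70.3 to 79.9 FPKM in 3 of the MG groups, 80.8 ± 2.41 FPKM in MP of G93A marrow at end stage and 90.2 ± 12.4 FPKM in MG of G93A marrow at the early stage. Neighbours in this order overlapped. For Prex1 the order was 11.2 ± 1.41, 20.4 ± 6.83, 24.4 ± 3.90 and 53.5 ± 14.03 FPKM in the MP groups, with WT marrow at end stage lowest and G93A marrow at end stage highest, and 69.1 to 92.95 FPKM in the MG groups. Tln1 and Prex1 were picked from the end-stage MP groups, so the places of those groups in both orders are a description that supports nothing. In the Prex1 order MP of WT marrow at end stage did not overlap with its neighbour, nor did the 2 early MP groups with MP of G93A marrow at end stage.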

How the data were processed

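RNA from CD11b-selected cells was sequenced in 74 libraries, grouped by the labels. The authors deposited FPKM values per gene in 2 tables, per the file headers and labels, written with a decimal comma and 2 decimals, so they are not counts and the depth is unknown. Reads were processed with FastQC, Picard, SAMtools, DESeq2, R 3.2.5 and build mm10, per the submitters' processing notes, and the aligner, counter, strand setting and normalization across libraries were not given in the sources used here.

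The test was that of limma 3.58.1 (R 4.3.3; empirical Bayes with a mean trend) on log2(FPKM + 1), over genes with a symbol and a mean of at least 1 FPKM in the fit, with Benjamini-Hochberg adjustment over all of them and a threshold of 0.05. All 8 members passed that filter in every fit. Separate fits held the 33 MG, the 18 MP and all 51 non-grafted libraries, and the grafted MG (12) and MP (11). No libraries were identical. Scores for marker terms were mean log2 values of the neutrophil and oligodendrocyte lists (MG) or of the neutrophil and Schwann cell lists (MP). The scripts were tested on simulated data. All alternatives are summarised at the end.

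The members and all lists were chosen with earlier results of these data known. Genes named besides the members were up to 3 called genes of each pathway list with the largest differences in 4 comparisons, and the 5 genes with profiles most like Tln1 and Prex1 each, of which 1 is not reported here. The replicate is the library, so p-values measure the spread between libraries. Promoters came from RefSeq (GRCm38.p6).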

Additional observations from a re-analysis of the deposited data

Results flagged for a closer look

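Of 88 sets of 4 or 5 libraries, 1 for each gene and group of that size, 11 held a library far from the others of its group by Dixon's criterion, which chance meets in about 1 of 20 sets. End-stage G93A MG replicate 4 was high in Zyx (188.55 FPKM, others 34.12 to 43.35), Vasp (63.09, others 29.09 to 32.66), Flna (42.94, others 10.31 to 14.87) and Vcl (11.34, others 1.51 to 2.77). Onset G93A MG replicate 5 was high in Zyx (209.31 FPKM, others 18.58 to 55.13), Pxn (68.92, others 6.78 to 23.44) and Vcl (22.11, others 1.13 to 3.53). Both are among the 4 MG libraries with S100a8 above 10000 FPKM. Fermt3 was low in WT MG of the end-stage age, replicate 3 (50.14 FPKM, others 111.06 to 118.37), and Pxn was high in B6 MG of the end-stage age, replicate 4 (15.57 FPKM, others 5.19 to 6.39). In MP at the early symptomatic stage, replicate 3 was low in Prex1 (23.14 FPKM, others 35.47 to 36.49) and replicate 4 in Vasp (105.4 FPKM, others 133.01 to 137.18).

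The change of Fermt3 from the pre-symptomatic stage to end stage differed between MP and MG by -2.19 on the log2 scale (limma adjusted p = 0.0324).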

How the results depend on the processing

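Of 17 comparisons, 6 had a count of called members that moved by over 1.5 times under some setting; in every one of those moves the cause was not tested. From the 2 members of MG onset against the pre-symptomatic stage, 0 were left with no filter on low values, with median-ratio scaling, in a fit of only the groups compared, with the replicate block, with marker-score terms and without the libraries high in S100a8. There were 6 without the onset libraries high in Mbp, and 0 to 6 when 1 library was left out. The 3 members of the early stage became 1 with no filter, 7 in a fit of only the groups compared and 7 without the libraries high in S100a8, and 1 to 3 with 1 library left out. The 6 members of end stage became 1 with marker-score terms, where the called members Zyx (-0.11) and Flna (-0.073) reversed and Pxn, called in neither fit, went from 0.70 to -0.60, and 4 to 6 with 1 library left out. Against WT at onset the 0 members became 7 with B6 controls, 6 without the onset libraries high in Mbp and 0 to 2 with 1 library left out. Against WT at end stage they became 2 with B6 controls. The 1 member whose stage change differed between MP and MG became 0 with no filter, 2 with median-ratio scaling (1 higher, 1 lower), 2 in a fit of only the groups compared, 2 without the libraries high in S100a8 and 0 to 1 with 1 library left out. The other 11 comparisons stayed within 1.5 times. Apart from MP against MG at each stage, these called 0 members and at most 1 gene of all in the main fit, so little could move. Their values also enter the counts of single members that follow. Of 1920 alternative values of single members, 1811 stayed on their side of the threshold, 60 no longer passed, 47 newly passed and the 2 named above reversed a call. Of the 1811, 1677 also kept their sign and the rest changed sign and passed in neither fit, 27 of them with marker-score terms.

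Counts over all genes moved too: 2982 genes called at MG onset against the pre-symptomatic stage ranged from 0 to 6968 with 1 library left out, and 6571 at end stage fell to 2228 with marker-score terms. Median-ratio scaling shifted the median of all genes by -0.40 between MP and MG before symptoms and by 0.37 in the difference between their changes. It moved the share of higher calls from 24.1% to 90.6% (MG onset against WT), 40.1% to 67.8% (MG end stage against WT), 43.3% to 30.2% (MP against MG before symptoms) and 48.1% to 65.5% (the difference between changes). For MG onset against WT the calls themselves fell from 506 to 32 genes with this scaling. Of these 32 genes, 29 were higher, so the share of 90.6% rests on few calls. Apart from MG onset against the pre-symptomatic stage, the replicate block changed no count of called members by over 1.5 times. Genes called at MG onset fell with the block from 2982 to 0 against the pre-symptomatic stage and from 506 to 4 against WT. Same-numbered libraries did not deviate together (correlations from -0.82 to 0.81, median -0.03, over MG libraries), so the numbers were not taken to pair them. That check set MG groups against each other, so it cannot show whether MG and MP of a stage came from the same mice. This was not tested, and the fits of MP with MG took the libraries as independent. In grafted MP with WT marrow at the early stage, leaving out a library left 1, assumed to vary like the other groups. FPKM without counts gives no interval for low values.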
